A study of Mus musculus with 6 samples.

Results

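Interferon-stimulated genes and interferon regulatory factors were examined as 36 genes named by symbol, of which 31 were measured, out of 22180 genes in all. For each gene the probe set (the group of probes that reads a transcript) carrying its symbol alone was taken, and where several did, the brightest of them on average over the 6 arrays. Ifi44 is not named in the platform annotation used here. Irf5, Gbp2, Ifi27l2a and H2-D1 lie on probe sets that also carry another gene's symbol, so these 4 were not analysed here. The measured members were 7 regulators, 15 antiviral effectors and sensors, 4 interferon-inducible GTPases and 5 genes of antigen presentation.

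MC3T3-E1 cells, a pre-osteoblast line from mouse calvaria that makes mineralising osteoblasts in culture, were grown to confluency and then kept for 14 days in medium that held β-glycerophosphate at 10 mM and ascorbic acid at 50 µg/ml, in both groups. In 3 samples (NU7441 1 to 3) NU7441, an inhibitor of the kinase DNA-PKcs, was present at 1 µM, and 3 samples (DMSO 1 to 3) received the solvent DMSO. Total RNA of whole cells was read on Affymetrix arrays, and values are log2 signals. Whether the samples of a group were grown apart is not in the labels, so the spread behind each p-value is that of these samples and may be technical.

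Interferons are secreted proteins that warn cells of infection. Type I interferon binds a receptor whose kinases phosphorylate STAT proteins, and Stat2 together with Irf9 then switches on genes that carry an interferon-stimulated response element (ISRE). Interferon-gamma acts at gamma-activated sites (GAS) and through Irf1. Cells that are not infected hold a low tonic level of this programme, and in bone interferons are known above all for restraining osteoclasts. DNA-PKcs is known as a repair kinase, and it has also been described as a sensor of cytosolic DNA upstream of Irf3.

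RefSeq promoter windows (GRCm38.p6, 250 bases before to 50 after a transcript start, 300 in all) were found for 29 of the 36 members, and not for Usp18, Mx1, Mx2, Rtp4, Zbp1, Ifi27l2a and Iigp1. The ISRE core was searched as GAAA, any 2 bases and GAAA again, and the GAS as TTCNNNGAA, on both strands. The ISRE core was in the window of 14 of the 29 members (48.3%), against 3.99% of 27025 genes with a window. GAS letters were in 9 of the 29 (31.0%), against 9.55% of those genes. The motifs overlapped in 1 member, Bst2. A match is a description of letters and was not tested for binding.

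The windows below are 60 bases before the start, 5′ to 3′ on the gene's strand, with the ISRE core, or for Irf1 and Gbp7 the GAS letters, in capitals (an ISRE core on the other strand has TTTC in place of GAAA). The Igtp window also holds GAS letters, with their first base at -45, which are left in lower case. They were chosen to set members whose signal varied widely between arrays (Ifit1, Isg15, Gbp3, Igtp, Stat2) beside members that varied little although their letters match (Ifit3, B2m), with Irf1 and Gbp7 for GAS letters.
Ifit1, chr19:34640760-34640819, plus strand, first match at -104: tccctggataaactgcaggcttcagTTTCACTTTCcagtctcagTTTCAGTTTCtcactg
Isg15, chr4:156200856-156200915, minus strand, first match at -78: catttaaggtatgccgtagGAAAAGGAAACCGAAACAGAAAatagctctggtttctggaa
Gbp3, chr3:142559974-142560033, plus strand, first match at -45: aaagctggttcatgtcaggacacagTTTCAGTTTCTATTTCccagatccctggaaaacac
Igtp, chr11:58199496-58199555, plus strand, ISRE match at -34: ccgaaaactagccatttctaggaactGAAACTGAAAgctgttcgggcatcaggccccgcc
Stat2, chr10:128270251-128270310, plus strand, match at -222: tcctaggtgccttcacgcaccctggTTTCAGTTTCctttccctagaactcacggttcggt
Ifit3, chr19:34583348-34583407, plus strand, match at -156: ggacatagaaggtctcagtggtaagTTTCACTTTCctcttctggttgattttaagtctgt
Ifit3b, chr19:34607744-34607803, plus strand, match at -188: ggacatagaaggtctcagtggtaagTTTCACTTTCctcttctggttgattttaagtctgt
B2m, chr2:122147523-122147582, plus strand, match at -139: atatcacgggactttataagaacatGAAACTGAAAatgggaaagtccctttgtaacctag
Irf1, chr11:53769899-53769958, plus strand, GAS match at -90: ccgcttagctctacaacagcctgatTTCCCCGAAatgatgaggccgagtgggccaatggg
Gbp7, chr3:142530205-142530264, plus strand, first GAS match at -106: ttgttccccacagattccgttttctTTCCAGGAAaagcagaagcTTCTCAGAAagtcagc

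The Ifit3 and Ifit3b windows differed at 0 of 60 bases, a mark of how alike these neighbouring gene copies are. Isg15 had 3 overlapping ISRE cores in a row, and Ifit1 had 2 a short distance apart. Ifit3 and Ifit3b also had 2 each, the second lying beyond the bases printed above, at -122 for Ifit3 and -154 for Ifit3b. Tap1 and Psmb9 start close together on opposite strands, and their windows share 275 bases in which neither motif was found.

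Array medians over all probe sets lay between 6.38 and 6.42. Of the 12 osteoblast markers 10 were measured, with mean levels of 10.33 to 10.98 in DMSO and 10.77 to 11.41 in NU7441, and 0 of them lay below the lower quartile of every array. Mean levels of 11 macrophage and osteoclast markers were 6.50 to 6.64 and 6.46 to 6.56. Those of 11 dendritic, T, B and NK cell markers were 5.47 to 5.71 and 5.56 to 5.73, and those of 7 endothelial markers 5.68 to 5.75 and 5.60 to 5.75. Ptprc, which marks blood cells, Ms4a1, which marks B cells, and Emcn, which marks endothelium, lay below the lower quartile (5.11 to 5.16) of every array. They were 1 of 11, 1 of 11 and 1 of 7 measured markers of their lists, and the others were above that quartile on at least 1 array. Over all genes, 16.7% lay below the lower quartile of every array. In RNA of whole cultures, fewer cells of a type and less RNA per cell cannot be told apart.

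No member of the interferon programme differed detectably between NU7441 and DMSO. Their median log2 difference, NU7441 minus DMSO, was 0.03, against 0.00 over all genes, and the members' differences lay between -0.16 (Irf1) and 0.40 (Usp18). In limma with Benjamini-Hochberg adjustment 0 of 31 members passed an adjusted p of 0.05, as did 0% of all genes, and the smallest adjusted p of a member was 0.826, for Tap1. At an unadjusted p under 0.05 there were 0 members in limma, against 6.79% of all genes. Members were higher with NU7441 in 18 cases and lower in 13, that is 58.1% higher against 51.3% of all genes. The groups did not overlap in 2 of 31 members (6.45%), Irf2 and B2m, against 12.8% of all genes.

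The precision of these differences was limited by the arrays. In limma without pairs, the 95% interval of the difference excluded a 2-fold change for 28 of 31 members (90.3%), against 99.2% of all genes. It reached further for Ifit1, from -0.79 to 1.09, for Usp18, from -0.43 to 1.24, and for Iigp1, from -0.62 to 1.07. For these 3 genes the interval without pairs therefore does not exclude a 2-fold rise. Their SE was 0.40, 0.35 and 0.36 in that fit. With the replicate number as a block in limma, it was smaller, at 0.17, 0.11 and 0.12. Intervals were not calculated with the block.

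**Figure D1:**
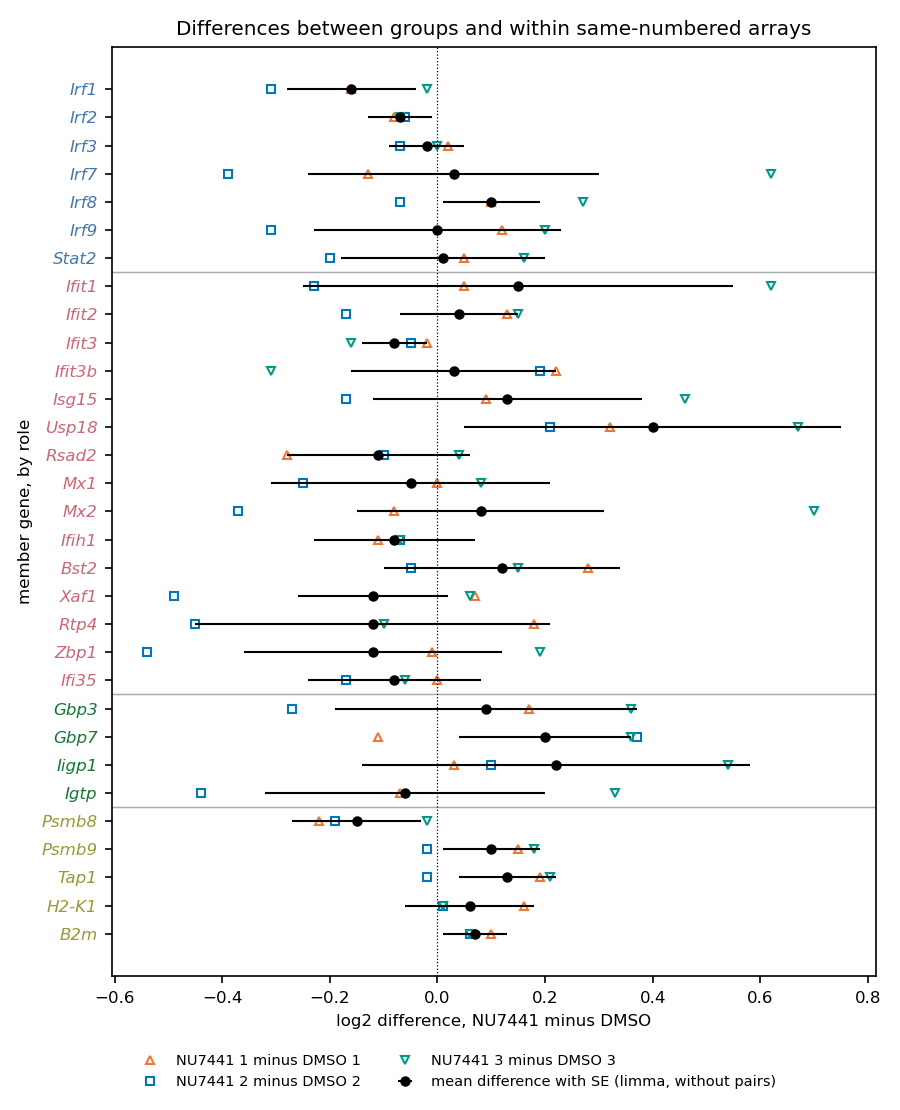
Log2 difference of each measured member (rows, coloured by role as regulators, effectors, GTPases and antigen presentation), with the mean difference and its standard error from limma without pairs as filled circles, and the difference within each same-numbered pair of arrays as open symbols. Pair 2 lies to the left of 0 for most members and pair 3 to the right, with 6 and 22 of 31 members higher with NU7441.

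The interferon genes spread widely between arrays of the same group, and most of them in the same order. Against each gene's mean over the 6 arrays, the members stood at a median of 0.02 in DMSO 1, while DMSO 2 had 0.32 and DMSO 3 had -0.30. NU7441 1 had 0.03, NU7441 2 had 0.13 and NU7441 3 had -0.19, while the medians over all genes lay between -0.01 and 0.01. DMSO 2 was thus high, both arrays numbered 3 were low, and the groups overlapped.

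The same arrays were high or low for most members. DMSO 3 was the lowest of the DMSO arrays in 26 of 31 members (83.9%), against 31.9% of all genes, and NU7441 3 the lowest of its group in 26 of 31 (83.9%), against 33.7%. Both held in 24 members (77.4%), against 15.0% of all genes. DMSO 2 was the highest DMSO array in 25 members (80.6%), against 36.3%. These counts are a description, since replicates have no order of their own and the members were proposed with results of these arrays known.

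The size of the spread was as marked as its direction. Across the 3 DMSO arrays the members' median range was 0.55 on the log2 scale, against 0.21 for all genes, and across the NU7441 arrays 0.34 against 0.18. A range of at least 1, or 2-fold, within DMSO was found in 10 of 31 members (32.3%) and in 0.83% of all genes. Those 10 were Irf7, Ifit1, Isg15, Usp18, Mx2, Rtp4, Zbp1, Gbp3, Iigp1 and Igtp. Of the members, 18 (58.1%) were in the upper 10% of all genes by SD within groups. In 29 of 31 members (93.5%) the range within DMSO was larger than the difference between the groups, which was so for 85.2% of all genes.

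**Figure D2:**
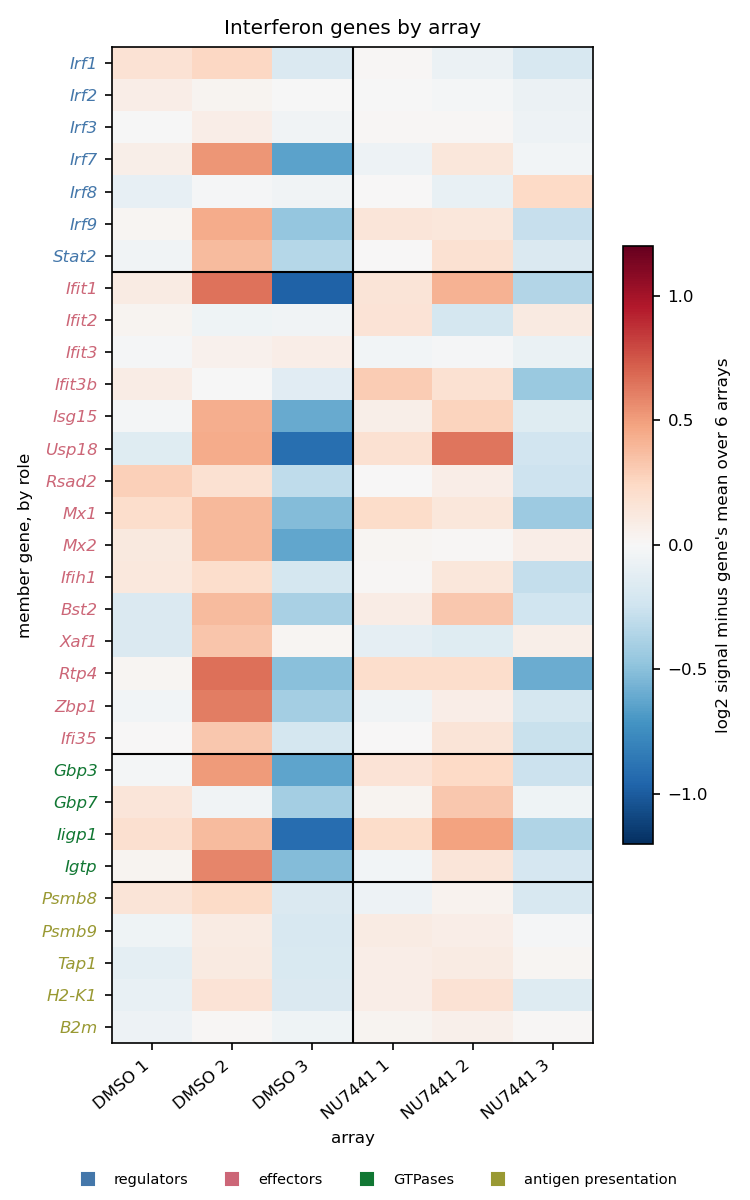
Log2 signal of each measured member (rows, grouped by role) minus its own mean over the 6 arrays (columns), with red above and blue below that mean. DMSO 2 is red and DMSO 3 blue for most rows, with DMSO 3 the lowest DMSO array in 26 of 31 members, while Irf2, Irf3, Ifit3 and B2m are pale throughout.

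Other quantities moved with these arrays. The median of the 10 osteoblast markers, against their own means, was -0.44, -0.29 and 0.13 in DMSO 1 to 3 and -0.02, 0.10 and 0.66 in NU7441 1 to 3, so that the arrays numbered 3 were high in their group where the interferon genes were low. The macrophage and osteoclast median stayed between -0.07 and 0.10 in all 6 arrays, the endothelial median between -0.10 and 0.09, and the median of the dendritic and lymphoid markers between -0.09 and 0.12. In 3 of the 11 macrophage and osteoclast markers, named here after their values were seen, the arrays numbered 3 were lowest in both groups, as in 24 of 31 members and 15.0% of all genes. Cd68, a lysosomal protein of macrophages, was at 8.13, 8.11 and 7.53 in DMSO and 7.92, 7.71 and 7.45 in NU7441. Cd14, the endotoxin co-receptor, was at 7.11, 7.3 and 6.69 and at 6.95, 6.85 and 6.64, and Ctsk, the protease cathepsin K of osteoclasts, at 11.75, 11.66 and 11.48 and at 11.54, 11.49 and 11.01. No other marker of their list was lowest in the arrays numbered 3 of both groups, though Mrc1 was lowest in DMSO 3 of its group and Aif1 in NU7441 3. Ptprc and Adgre1 of that list went the other way, highest in the arrays numbered 3 of both groups. Ptprc was at 4.49, 4.53 and 4.74 in DMSO and 4.58, 4.51 and 4.69 in NU7441. Adgre1 was at 5.27, 5.39 and 5.51 in DMSO and 5.31, 5.22 and 5.52 in NU7441. Of the 11 dendritic and lymphoid and the 7 endothelial markers, 0 and 0 were lowest in the arrays numbered 3 of both groups. The part of cell makeup or of differentiation in the spread of the interferon genes was not tested.

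Single arrays decided which way the members leaned. Without DMSO 3 only 7 of 31 members were higher with NU7441 and the median difference was -0.16, whereas without DMSO 2 it was 26 of 31 and 0.16. Without NU7441 2 there were 10 members higher, and without NU7441 3 there were 23. Leaving out both arrays of a number was a setting chosen after the data were seen. With both arrays numbered 3 left out, 10 members were higher, with a median of -0.07. With both numbered 2 left out, 23 were higher, with a median of 0.11. In 21 of 31 members the sign of the difference turned when some single array was left out. For the other 10, Irf1, Irf2, Irf8, Ifit3, Usp18, Gbp7, Psmb8, Psmb9, Tap1 and B2m, no single array turned it.

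Because same-numbered arrays deviated together over all genes, the differences within pairs are given too. The members' median was 0.05 in pair 1, -0.17 in pair 2 and 0.15 in pair 3, with 19, 6 and 22 of 31 members higher with NU7441. All 3 pairs ran in 1 direction in 10 of 31 members (32.3%), against 32.7% of all genes. With the replicate number as a block, limma had 0 members past an adjusted p of 0.05 and 1 of 31 (3.23%), Usp18, at an unadjusted p under 0.05, against 9.37% of all genes. With the block, a trend over intensity and a robust prior together, limma called 0.451% of all genes and 0 members. At an unadjusted p under 0.05 that setting held 4 members (12.9%), Irf1, Usp18, Psmb8 and B2m, against 11.2% of all genes.

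The regulators held both very steady and very variable genes, and none passed the adjusted test in limma. Of the regulators, only Irf2 had groups that did not overlap. Stat2 and Irf9, which bring the type I signal to the ISRE, had the same order of DMSO arrays. Stat2 was at 8.85, 9.28 and 8.55 in DMSO 1 to 3 and at 8.90, 9.08 and 8.72 in NU7441 1 to 3. Irf9 was at 8.33, 8.75 and 7.84 in DMSO and at 8.45, 8.44 and 8.03 in NU7441. Both were highest in DMSO 2 and lowest in DMSO 3, with the NU7441 arrays in between, and the differences were 0.01 (SE 0.19) for Stat2 and 0.00 (SE 0.23) for Irf9, with adjusted p of 0.996 and 0.998 in limma.

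Irf7, which amplifies type I interferon production and is itself interferon-induced, had the widest spread of the regulators. It was at 7.45, 7.91 and 6.74 in DMSO 1 to 3 and at 7.32, 7.52 and 7.35 in NU7441 1 to 3. DMSO 2 was 2.26-fold above DMSO 3, while the NU7441 arrays lay within 0.20 of each other, and the difference was 0.03 (SE 0.27). Within pairs the Irf7 difference was -0.13, -0.39 and 0.62, so pair 3 stood against the other two.

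Irf3, the latent factor that starts the interferon response after sensing of nucleic acids, was steady at 8.47 to 8.60 in DMSO and 8.46 to 8.53 in NU7441, a difference of -0.02 (SE 0.07). Irf2, known as a repressor that competes with Irf1, was at 9.38, 9.34 and 9.3 in DMSO and 9.3, 9.28 and 9.23 in NU7441, a difference of -0.07 (SE 0.06). The highest NU7441 value of Irf2 met the lowest DMSO value to within rounding, and limma gave an adjusted p of 0.859. Irf1, which drives genes of antigen presentation, was at 9.42, 9.50 and 9.08 in DMSO and 9.26, 9.18 and 9.06 in NU7441, a difference of -0.16 (SE 0.12, limma adjusted p = 0.830). It was lower with NU7441 in all 3 pairs, with differences of -0.16, -0.31 and -0.02, and DMSO 3 lay in the range of the NU7441 arrays. Irf8, a factor of myeloid cells, was at 6.06 to 6.14 in DMSO and 6.07 to 6.4 in NU7441, a difference of 0.10 (SE 0.09). A second probe set for Irf8 differed by 0.02.

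**Figure D3:**
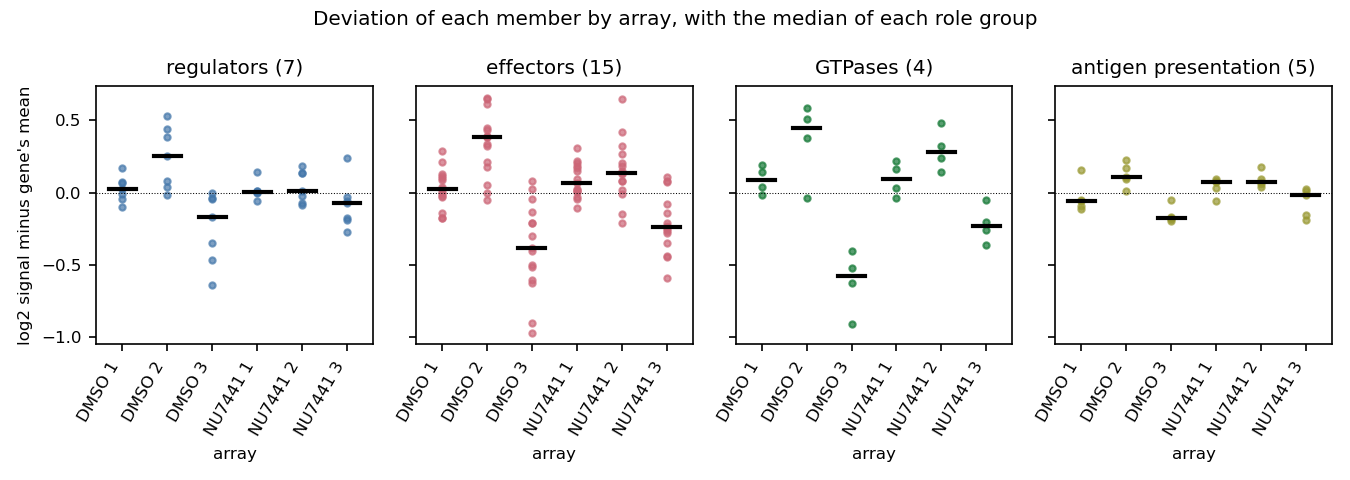
Log2 signal of each member minus its own mean, by array, in 4 panels for the regulators (7), effectors (15), GTPases (4) and antigen presentation genes (5); dots are genes and black bars the median of the panel in that array. The medians are highest in DMSO 2 in each panel and lowest in DMSO 3, from -0.17 for the regulators and antigen presentation to -0.58 for the GTPases.

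The antiviral effectors and sensors had a median difference of -0.05, with 7 of 15 higher and 8 lower, and a median range of 0.77 within DMSO. Ifit1, which binds viral RNA caps that lack host methylation, had the widest spread of the members. It was at 8.71, 9.26 and 7.64 in DMSO 1 to 3 and at 8.76, 9.03 and 8.26 in NU7441 1 to 3. DMSO 2 was 3.08-fold above DMSO 3, the NU7441 arrays lay between them, and the difference was 0.15 (SE 0.40, limma adjusted p = 0.957).

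Ifit2 and Ifit3 did not share this spread. Ifit2, a partner of Ifit1 and Ifit3, was at 7.97, 7.88 and 7.89 in DMSO and 8.10, 7.72 and 8.04 in NU7441, and Ifit3 was at 8.03, 8.09 and 8.12 and at 8.01, 8.03 and 7.96. Ifit3 was thus flat although its window holds the ISRE letters shown above. Ifit3b was at 4.98, 4.89 and 4.76 in DMSO and 5.20, 5.08 and 4.45 in NU7441, close to the lower quartile of the arrays. Since Ifit3 and Ifit3b are near copies, probes may read both, and their separate values are uncertain.

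Isg15, a ubiquitin-like protein attached to other proteins, and Usp18, which removes it and dampens the type I receptor, followed the Ifit1 order. Isg15 was at 6.10, 6.56 and 5.52 in DMSO and 6.19, 6.39 and 5.98 in NU7441, a difference of 0.13 (SE 0.25). Usp18 was at 7.90, 8.49 and 7.14 in DMSO and 8.23, 8.69 and 7.81 in NU7441, a difference of 0.40 (SE 0.35). Usp18 was higher with NU7441 in each pair, by 0.32, 0.21 and 0.67, though the groups overlapped. In limma its adjusted p was 0.854 without pairs and 0.487 with the replicate block, where the SE was 0.11 and the unadjusted p 0.0132.

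The Mx proteins are dynamin-like GTPases that trap viral nucleoproteins. Mx1 was at 5.48, 5.66 and 4.75 in DMSO and 5.49, 5.40 and 4.83 in NU7441, low in both arrays numbered 3, with a difference of -0.05 (SE 0.26). Mx2 was at 5.86, 6.13 and 5.12 in DMSO and 5.77, 5.76 and 5.82 in NU7441, a difference of 0.08 (SE 0.23). DMSO 3 alone was low for Mx2, and the NU7441 arrays were within 0.06 of each other. In both arrays numbered 3 Mx1 lay below the lower quartile of the arrays, as did no other Mx1 value, and Mx2 in DMSO 3 lay at about that quartile. Signal over background was not analysed here.

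Of the sensors, Ifih1, the RNA receptor MDA5, was at 8.63, 8.71 and 8.29 in DMSO and 8.52, 8.64 and 8.22 in NU7441, a difference of -0.08 (SE 0.15). Zbp1, a sensor of Z-form nucleic acids that can trigger cell death, was at 7.60, 8.25 and 7.23 in DMSO and 7.59, 7.71 and 7.42 in NU7441, a difference of -0.12 (SE 0.24). The NU7441 arrays of Zbp1 lay within the DMSO range. Rtp4, an interferon-induced protein named after receptor transport, was at 8.32, 8.95 and 7.79 in DMSO and 8.50, 8.50 and 7.70 in NU7441, again low in both arrays numbered 3.

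The remaining effectors were Bst2, Rsad2, Ifi35 and Xaf1. Bst2, the tetherin that holds budding virus at the membrane, was at 7.03, 7.59 and 6.82 in DMSO and 7.3, 7.53 and 6.97 in NU7441, a difference of 0.12 (SE 0.22). Rsad2, the enzyme viperin that makes a chain-terminating nucleotide, was at 6.98, 6.87 and 6.39 in DMSO and 6.70, 6.77 and 6.44 in NU7441, a difference of -0.11 (SE 0.17). DMSO 3 stood near the NU7441 arrays for Rsad2, and without it the remaining DMSO values lay above the NU7441 values. Ifi35 was at 9.42, 9.74 and 9.21 in DMSO and 9.42, 9.57 and 9.15 in NU7441, a difference of -0.08 (SE 0.16). A second Ifi35 probe set gave -0.01. Xaf1, a binding partner of the apoptosis inhibitor XIAP, departed from the shared order: it was at 8.81, 9.32 and 9.01 in DMSO and 8.88, 8.84 and 9.06 in NU7441, high in DMSO 2 but not low in DMSO 3.

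The interferon-inducible GTPases attack membranes around intracellular parasites, and as a group they showed the widest spread within DMSO, a median range of 1.12. All 4 were lowest in DMSO 3 and in NU7441 3 within their groups. Iigp1 was at 7.86, 8.05 and 6.76 in DMSO and 7.89, 8.15 and 7.31 in NU7441, a difference of 0.22 (SE 0.36). Igtp was at 8.01, 8.56 and 7.45 and at 7.94, 8.12 and 7.77, a difference of -0.06 (SE 0.26). Gbp3 was at 6.26, 6.79 and 5.65 and at 6.44, 6.52 and 6.02, a difference of 0.09 (SE 0.28). These 3 had DMSO 2 at 2.15-fold to 2.45-fold above DMSO 3, a gap between single arrays of a group that was wider than any of their group differences. Gbp7 was at 7.28, 7.10 and 6.73 in DMSO and 7.17, 7.46 and 7.09 in NU7441, a difference of 0.20 (SE 0.16), with a narrower DMSO range of 0.55.

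**Figure D4:**
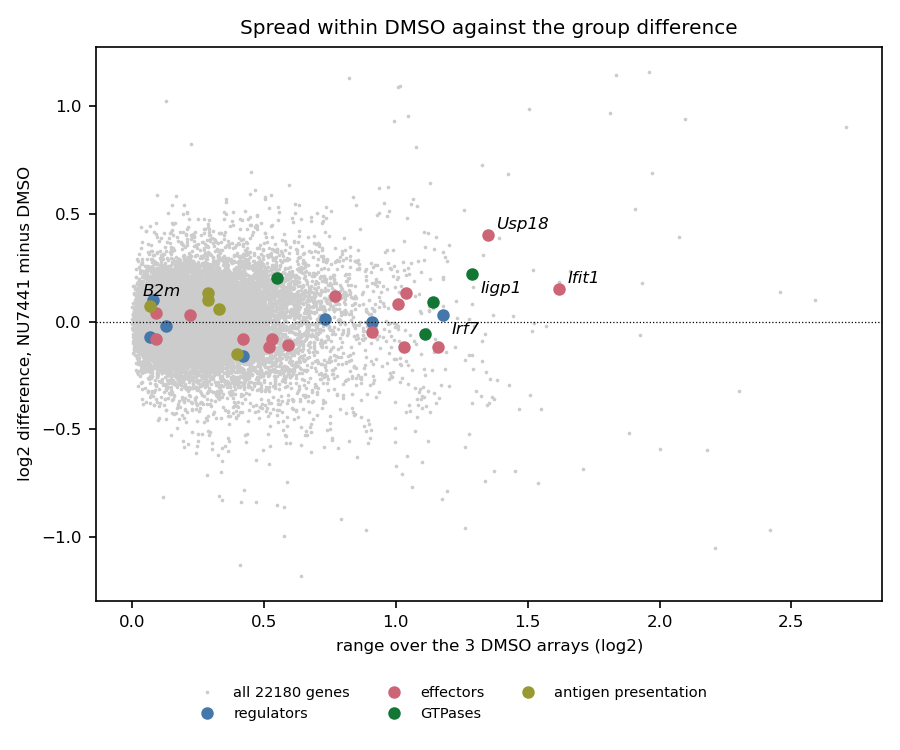
Range over the 3 DMSO arrays (x axis, log2) against the difference between the groups (y axis, log2, NU7441 minus DMSO) for all 22180 genes in grey and the measured members in colour by role. The members reach far to the right, to 1.62 for Ifit1, but stay near 0 on the y axis, between -0.16 and 0.40.

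Antigen presentation by MHC class I was the steadiest role group, with a median range of 0.29 within DMSO and a median difference of 0.07. B2m, the constant chain of class I molecules, was at 13.29, 13.36 and 13.30 in DMSO and 13.38, 13.41 and 13.36 in NU7441, a difference of 0.07 (SE 0.06). The lowest NU7441 value and the highest DMSO value differed only past the second decimal, and limma gave an adjusted p of 0.849. H2-K1, a class I heavy chain, was at 10.94, 11.20 and 10.86 in DMSO and 11.11, 11.21 and 10.88 in NU7441, a difference of 0.06 (SE 0.12). Other class I genes are close copies, so part of this signal may come from them.

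Tap1, a subunit of the peptide transporter, and Psmb9, a subunit of the immunoproteasome, share their promoter region and had like patterns. Tap1 was at 9.38, 9.60 and 9.31 in DMSO and 9.57, 9.59 and 9.52 in NU7441, a difference of 0.13 (SE 0.09). Psmb9 was at 7.53, 7.68 and 7.39 in DMSO and 7.68, 7.66 and 7.57 in NU7441, a difference of 0.10 (SE 0.09). In both, DMSO 2 was as high as the NU7441 arrays, and without it the groups were apart, with an unadjusted p under 0.05 for Tap1, where 6.13% of all genes were. Psmb8, a further immunoproteasome subunit, was at 9.05, 9.12 and 8.72 in DMSO and 8.83, 8.93 and 8.70 in NU7441, a difference of -0.15 (SE 0.12). DMSO 3 lay with the NU7441 arrays for Psmb8, and without DMSO 3 the unadjusted p was under 0.05 for Psmb8, Irf1 and Rsad2, where 7.61% of all genes were.

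Further genes of the pathway, taken from lists by role, showed the array order to differing extents. Of 42 measured interferon-stimulated genes outside the members, 31 were lowest in DMSO 3 among DMSO, against 31.9% of all genes, of 7 further GTPases all 7, and of 15 further antigen presentation genes 9. Among 13 nucleic acid sensors and adaptors it was 8, and among 10 receptors, kinases and STAT partners 3. Among 9 interferon ligands it was 1, among 8 negative regulators 4, and among 4 remaining regulatory factors and their partners 1. The difference between these lists was not tested. Medians against the genes' means were 0.19 in DMSO 2 and -0.17 in DMSO 3 for the further interferon-stimulated genes, and 0.03 and 0.01 for receptors, kinases and STAT partners.

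Between the groups, 0 of these 108 pathway genes passed an adjusted p of 0.05 in limma, with 37 higher and 71 lower, where 51.3% of all genes were higher. At an unadjusted p under 0.05 there were 3 higher and 5 lower, where 6.79% of all genes passed. The genes with the smallest p in each list were as follows. Among the receptors and kinases these were Il10rb at -0.09 (SE 0.08), Ifnar2 at -0.08 (SE 0.08) and Jak1 at -0.10 (SE 0.10). Of the ligands, Ifnk differed by -0.45 (SE 0.10) at a level below the lower quartile of every array, Ifne by 0.24 (SE 0.09) and Ifnl3 by 0.24 (SE 0.12). Ifnb1, chosen after its values were seen as the main type I ligand of such cells, was at 4.17, 3.81 and 4.14 in DMSO and 4.64, 3.97 and 4.11 in NU7441, below the lower quartile throughout. On every array 3 of the 9 ligands lay below that quartile, against 16.7% of all genes.

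Sting1, the adaptor of cytosolic DNA sensing, was at 8.45, 8.49 and 8.47 in DMSO and 8.28, 8.24 and 8.3 in NU7441, a difference of -0.20 (SE 0.06). Its groups lay apart, yet limma gave an adjusted p of 0.698. In that list Tlr9 differed by 0.21 (SE 0.07) and Myd88 by -0.12 (SE 0.07). Of the negative regulators Samhd1 differed by 0.19 (SE 0.08), Socs3 by -0.17 (SE 0.08) and Ptpn6 by 0.12 (SE 0.07), and of the remaining regulatory factors and their partners Irf2bpl by -0.21 (SE 0.07), Irf2bp2 by -0.07 (SE 0.08) and Irf4 by 0.13 (SE 0.15).

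The further interferon-stimulated genes held differences larger than those of the members, none passing the adjusted test. Ifitm1, of the family that blocks viral entry, was at 6.56, 6.91 and 6.82 in DMSO and 7.01, 7.15 and 7.82 in NU7441, a difference of 0.57 (SE 0.21, limma adjusted p = 0.712). Ifi204, of the DNA-binding p200 family, was at 8.79, 9.02 and 8.35 in DMSO and 8.27, 8.44 and 7.87 in NU7441, a difference of -0.53 (SE 0.20, limma adjusted p = 0.717). Ifi204 thus had the low arrays numbered 3 of the members and, beside that, lower values in each NU7441 array than in its numbered DMSO partner. In limma with the replicate block its unadjusted p was 0.00037 and its adjusted p 0.318. Helz2 differed by -0.19 (SE 0.10).

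Within the Gbp family the differences had both signs. Gbp4 was at 6.87, 7.17 and 6.11 in DMSO and 6.06, 6.18 and 5.61 in NU7441, a difference of -0.77 (SE 0.28, limma adjusted p = 0.708). Gbp8 was at 9.68, 9.39 and 8.23 in DMSO and 8.71, 8.98 and 7.52 in NU7441, a difference of -0.69 (SE 0.48). Gbp5 differed by 0.13 (SE 0.10). Gbp4 and Gbp8 were lower in each NU7441 array than in its numbered DMSO partner, where the members Gbp3 and Gbp7 differed by 0.09 and 0.20. In limma with the replicate block the unadjusted p was 0.000891 for Gbp4 and 0.0022 for Gbp8. The adjusted p there was 0.359 and 0.396. Gbp genes are close relatives, so probes may read more than 1 of them, and the difference between these genes was not tested. Of the further antigen presentation genes, Erap1 differed by -0.31 (SE 0.15), Pdia3 by -0.15 (SE 0.09) and Tapbpl by -0.17 (SE 0.14).

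The oligoadenylate synthetases are interferon-induced too. Oas1g differed by 1.02 (SE 0.13), Oas1d by 0.45 (SE 0.09) and Oas2 by 0.49 (SE 0.27), with Oas1g and Oas1d below the lower quartile of every array. Of 11 measured genes of the family 10 were higher with NU7441, against 51.3% of all genes, and none passed an adjusted p of 0.05 in limma. The differences of Oas1c, Oas1f, Oas3 and Oasl2 were only 0.01 to 0.03, and 4 of the 11 lay below the lower quartile of every array.

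Members with and without the ISRE letters in their window overlapped in spread. In the 13 measured members whose window held the core, the median gap between DMSO 2 and DMSO 3 was 0.48, with values from -0.03 to 1.62. In the 12 whose window did not, it was 0.32, with values up to 1.18 for Irf7. The other 6 measured members had no window and are in neither set, with gaps of 0.91 for Mx1, 1.01 for Mx2, 1.03 for Zbp1, 1.16 for Rtp4, 1.29 for Iigp1 and 1.35 for Usp18. These values were not tested, and the letters within this window say nothing of sites farther away.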

How the data were processed

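The deposited table gives 1 value per probe set and array for 41345 probe sets. That these are log2 signals was read from the values' range; the authors' background correction, summarisation and normalization are not stated in what was used here. RNA was purified on columns and prepared for the array by its maker's protocol, per the labels. The platform annotation gave 1 symbol for 23521 probe sets, several for 1814 and none here for 16010, and 0 symbols changed through RefSeq. The deposited log2 values were used without further normalization or filter, and 0 columns belonged to other samples.

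A linear model with the group alone as term was fitted to 22180 genes in limma 3.58.1 under R 4.3.3. It was moderated with eBayes (two-sided), with Benjamini-Hochberg adjustment and a threshold of 0.05. The fit was tried on simulated data with noise drawn independently for each array. That trial does not cover spread shared by same-numbered arrays. Over all genes, deviations from the group means correlated at 0.149, 0.169 and 0.339 for the same replicate number and at -0.246 to 0.094 otherwise, so the numbers were taken as pairs. This comes from the data, as no label states it, and the replicate block was an alternative. Every measured member was named, with, per pathway list, the 3 genes of smallest p. Members and lists were chosen with earlier results of these data known. Further alternatives were leaving out each array, array weights, quantile normalization, median centring, the upper 50 percent of genes by level, averaging each gene's probe sets, and a trend over intensity with a robust prior, alone and with the block. Leaving out both arrays numbered 2 or 3 was added after seeing the data. matplotlib 3.10.9 under Python 3.11.15 drew the figures.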

Additional observations from a re-analysis of the deposited data

How the results depend on the processing

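No member passed an adjusted p of 0.05 in limma under any of the settings run; the number of genes called over all genes was 0 except with the replicate block, trend and robust prior together, where it was 100. Members at an unadjusted p under 0.05 numbered 0 of 31 (6.79% of all genes), but 1 with the replicate block (Usp18, 9.37%), 4 with block, trend and robust prior (11.2%), 1 with both arrays numbered 3 left out (Irf1, 6.12%), and 0 to 3 without single arrays (5.29% to 7.87%). The replicate block changed no other call. Members higher numbered 18 (51.3% of all genes), but 10 with both arrays numbered 3 left out (49.2%) and 23 with both numbered 2 left out (50.8%). They numbered 24 with array weights (51%) and 7 to 26 without single arrays (49.4% to 52.9%). Members whose groups did not overlap numbered 2 (12.8% of all genes), but 1 with quantile normalization (12.4%), 7 with both arrays numbered 3 (35.5%) or both numbered 2 (32.6%) left out, and 2 to 6 without single arrays (21.2% to 25.1%), where smaller groups overlap less by construction. The median difference of the regulators ran from -0.16 to 0.12 without single arrays, that of the effectors from -0.20 to 0.13, that of the GTPases from -0.19 to 0.30 and that of antigen presentation from 0.029 to 0.16. The counts of members lowest in the arrays numbered 3 stayed within 1.5 times under the scaling, filter and probe set alternatives; 24 members were in the upper 50 percent of genes.

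Signs of single members turned as follows; the cause was not tested. Without single arrays, the differences ran from -0.038 to 0.35 for Bst2, -0.20 to 0.37 for Gbp3, -0.009 to 0.16 for H2-K1, -0.20 to 0.064 for Ifi35, -0.21 to 0.038 for Ifih1, -0.30 to 0.51 for Ifit1, -0.037 to 0.15 for Ifit2, -0.11 to 0.26 for Ifit3b, -0.34 to 0.21 for Igtp, -0.17 to 0.47 for Iigp1, -0.047 to 0.020 for Irf3, -0.28 to 0.31 for Irf7, -0.23 to 0.22 for Irf9, -0.14 to 0.38 for Isg15, -0.33 to 0.15 for Mx1, -0.21 to 0.30 for Mx2, -0.29 to 0.0038 for Rsad2, -0.40 to 0.18 for Rtp4, -0.16 to 0.20 for Stat2, -0.24 to 0.018 for Xaf1 and -0.35 to 0.16 for Zbp1. Quantile normalization gave 0.0015 for Irf3, and median centring -0.014 for Irf9 and -0.010 for Stat2. Array weights gave 0.0020 for Irf3, 0.082 for Mx1, 0.068 for Rtp4, 0.0046 for Zbp1, 0.013 for Ifi35 and 0.072 for Igtp. With both arrays numbered 3 left out the values were -0.26 for Irf7, -0.092 for Irf9, -0.072 for Stat2, -0.088 for Ifit1, -0.018 for Ifit2, -0.040 for Isg15, -0.23 for Mx2 and -0.048 for Gbp3. With both numbered 2 left out they were 0.0081 for Irf3, -0.044 for Ifit3b, 0.045 for Mx1, 0.062 for Xaf1, 0.044 for Rtp4, 0.094 for Zbp1 and 0.13 for Igtp. Signal over background was not analysed here, which limits the dim members Ifit3b, Mx1 and Mx2.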
